A study of Mus musculus with 8 samples.

Results

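The Sprouty and Spred family was followed across the cell types of the mouse distal colonic mucosa. Its 6 members, Spry1, Spry2, Spry4, Spred1, Spred2 and Spred3, were taken by gene symbol from the 31053 genes of the deposited matrix. Each symbol stood for 1 row, and its Ensembl identifier matched the GENCODE M21 annotation. The data are transcript counts of 53080 single cells, read from 3′ ends in droplets, from 8 mice aged 8 weeks. Mice 2, 3, 6 and 7 were labelled KO: both floxed Spry2 and a Cre driven by the epithelial Villin promoter were present. Their littermates, mice 1, 4, 5 and 8, were labelled WT and had the floxed gene but no Cre. Floxed Spry2 was therefore common to all 8 mice, and the labels list no group with Cre alone. The design asks how loss of Sprouty2 in the epithelium alters the cells of the colon.

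Growth factor receptors with tyrosine kinase activity switch on Ras, which starts the Raf, MEK and ERK kinase cascade. Sprouty and Spred proteins share a cysteine-rich Sprouty domain and restrain this cascade, and several Sprouty genes are themselves switched on by ERK signalling, which makes them feedback inhibitors. Sprouty proteins bind adaptors such as Grb2 and the ubiquitin ligase Cbl, whereas Spred proteins carry an EVH1 domain through which Spred1 recruits neurofibromin, a protein that inactivates Ras. In the intestine, receptor tyrosine kinase signals from the stroma and the epithelium support the dividing cells of the crypt.

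In GENCODE M21 on GRCm38 (the mm10 assembly named in the submitters' processing notes), all 6 members were protein-coding genes. Spry2 lay at chr14:105891947-105896819 on the minus strand, with 1 transcript of 2 exons. Spry1 lay at chr3:37639947-37644598 on the plus strand, with up to 3 exons. Spred1 (chr2:117121374-117182279, plus), Spred2 (chr11:19924375-20024026, plus) and Spred3 (chr7:29158829-29170411, minus) had up to 7, 7 and 6 exons. No gene on the same strand overlapped any of the 6. On the opposite strand, Ggn overlapped Spred3, Gm42922 overlapped Spry1 and 2 small RNA genes overlapped Spry4. Cell Ranger, which made the counts, by default counts reads in a gene's own direction, though no source used here gives its settings.

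The promoters of Spry1, Spry2 and Spred2 are shown because the first pair had opposite patterns in lymphoid cells and the third member differed least between fibroblasts and epithelial cells. The RefSeq table (GRCm38.p6) had a window for 5 of the 6 members. Each sequence is the 250 bases before the RefSeq start, on the gene's strand. GENCODE M21 starts Spred2 earlier, inside its window, so the last 67 bases of that window were left out and 183 are shown. Capitals mark GGAA, the core bound by ETS transcription factors, several of which are ERK targets, or its complement TTCC.
Spry1, chr3:37639697-37639946, plus: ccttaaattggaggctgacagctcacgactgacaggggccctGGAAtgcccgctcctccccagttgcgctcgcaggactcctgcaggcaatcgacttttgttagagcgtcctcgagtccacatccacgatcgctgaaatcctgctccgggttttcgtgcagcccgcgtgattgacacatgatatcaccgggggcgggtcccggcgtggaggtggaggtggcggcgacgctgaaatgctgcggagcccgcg
Spry2, chr14:105896820-105897069, minus: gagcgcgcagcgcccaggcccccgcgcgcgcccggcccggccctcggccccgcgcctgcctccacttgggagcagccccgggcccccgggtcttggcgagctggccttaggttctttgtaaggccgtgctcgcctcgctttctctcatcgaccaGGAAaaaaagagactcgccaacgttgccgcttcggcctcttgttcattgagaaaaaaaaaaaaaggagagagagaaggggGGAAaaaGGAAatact
Spred2, chr11:19924192-19924374, plus: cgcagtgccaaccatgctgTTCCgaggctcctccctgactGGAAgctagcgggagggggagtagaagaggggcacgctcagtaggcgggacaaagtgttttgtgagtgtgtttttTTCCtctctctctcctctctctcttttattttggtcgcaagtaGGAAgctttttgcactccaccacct
Spry1 had 1 match, Spry2 3 and Spred2 4, counting GGAA on either strand. Among the 32851 windows of 250 bases in the table, 93.4% held at least 1 match and 54.7% at least 3, with a median of 3. The same stretch of 183 bases held at least 4 matches in 16.7% of them. A match is a description of the letters, and no binding was measured here.

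UMIs (unique molecular identifiers, 1 per captured transcript) summed to between 17.04 and 37.3 M (mega) in a mouse, and a cell had 500 to 113660. These totals include doublets by the authors' naming (1316 cells), which were left out of the levels and tests. Of the barcodes, 356 occurred in more than 1 library (719 cells). The share of epithelial cells with 50% or more mitochondrial UMIs ranged from 11.1% to 79.6% and was 53.5% to 79.6% in mice 1 to 4, against 11.1% to 37.2% in mice 5 to 8. Both genotypes had 2 mice on each side. Within each mouse and cell set, UMIs were summed and given as CPM, the UMI count scaled to the same total in every set, where at least 20 cells were present. In bulk sums of this kind, fewer expressing cells and less RNA per cell cannot be told apart. The labelled classes carried their defining genes: Epcam, Cdh1, Krt8 and Vil1 together reached 4071 to 7779 CPM in KO-labelled epithelium and 4735 to 9165 CPM in WT-labelled epithelium. Col1a1, Col1a2, Dcn and Pdgfra together reached 18834 to 21403 CPM in KO-labelled fibroblasts and 12412 to 23838 CPM in WT-labelled fibroblasts. The fibroblast genes came to 34.6 to 78.9 CPM in the epithelium of KO-labelled mice and 13.8 to 83.5 CPM in that of WT-labelled mice, and their part in the epithelial values of the members was not tested.

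Each member had its own distribution over the 7 classes that at least 4 mice could fill (blood endothelium, lymphatics, fibroblasts, epithelium, T cells, macrophages and B cells). Spry1, Spry4, Spred1, Spred2 and Spred3 had their highest mean in blood endothelium, whereas Spry2 had its highest mean in fibroblasts. Endothelium exceeded the next class in 6 of 6 mice for Spry4, but in 4 of 6 for Spry1, 3 of 6 for Spred1 and for Spred2, and 2 of 6 for Spred3. B cells and macrophages were at or near the bottom for all 3 Sprouty members, while macrophages held Spred1. Neighbouring classes in each member's order were compared by a two-sided exact sign-flip test over mice on log2(CPM + 1), with Benjamini-Hochberg adjustment over all 36 pairs. None of the 36 passed the threshold of 0.05 (smallest adjusted p = 0.0625), and 13 had an unadjusted p under it. With 8 mice the smallest p that the test can give is 0.00781, and with 6 mice 0.0313. With mitochondrial genes left out of the totals, or cells rich in mitochondrial UMIs left out, 6 pairs passed (adjusted p = 0.0469 in each). Among them, Spred1 and Spred2 between epithelium and T cells had a raw sign-flip p of 0.0859 and 0.0625 before and 0.00781 then. The rest already had 0.00781, so of their p-values only the adjusted one changed.

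**Figure D1:**
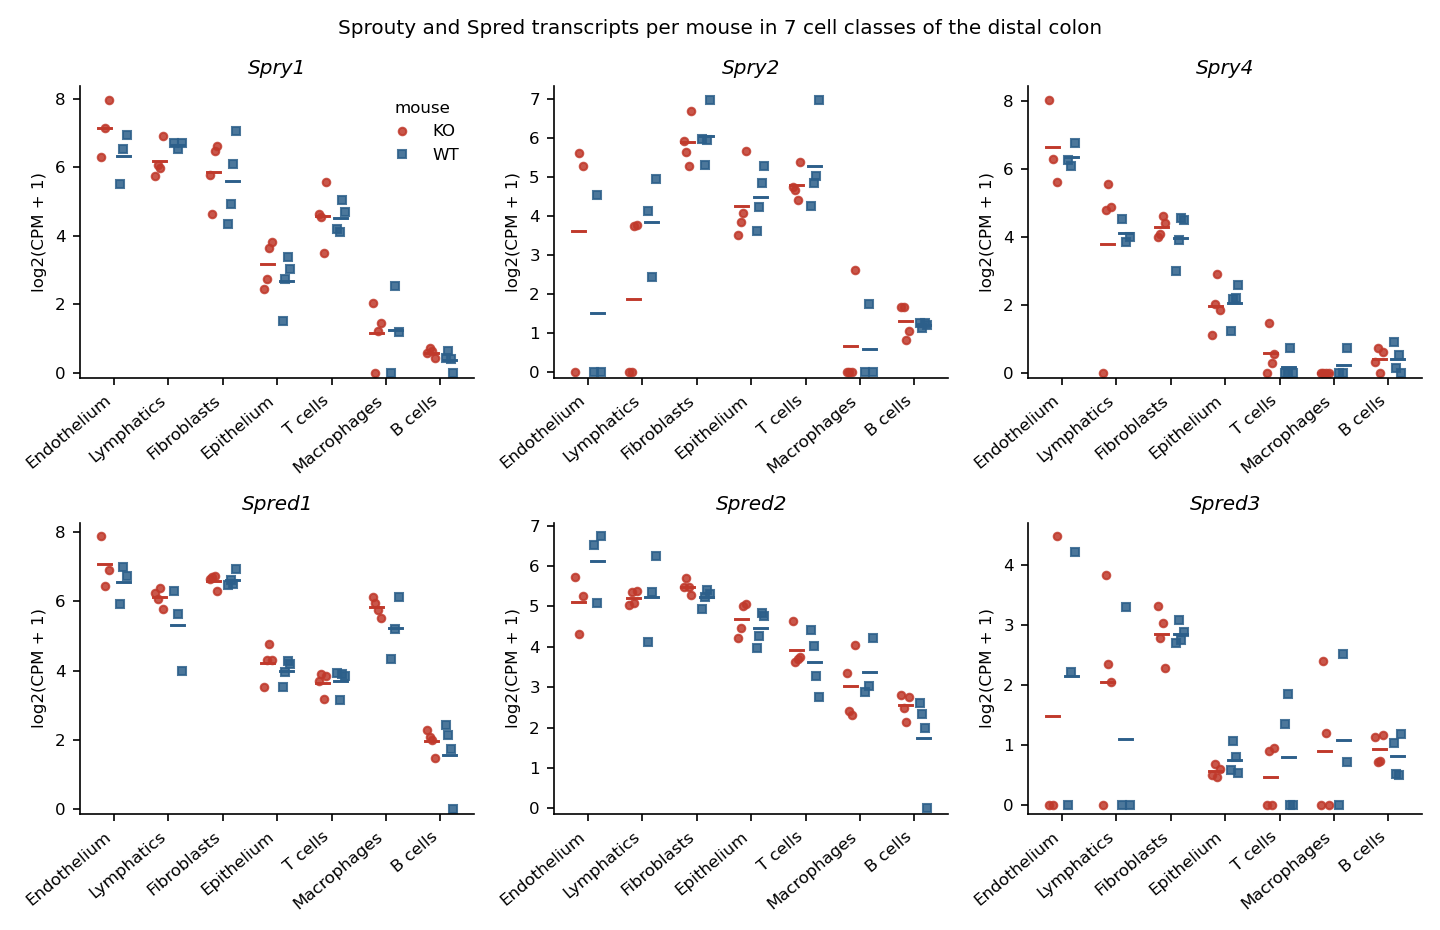
Transcript level of each member, as log2(CPM + 1) on the vertical axis, in 7 cell classes. Each point is 1 mouse with at least 20 cells of the class (red circles KO-labelled, blue squares WT-labelled) and bars are means of the points. On this scale Spry2 and Spred3 have fibroblast means above endothelial means in both genotypes, and Spry4 is close to 0 in T cells, macrophages and B cells.

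Spry1, an inhibitor known for restraining FGF and GDNF signals, was a stromal and vascular transcript with a second site in lymphoid cells. In blood endothelium it had 77.9, 142.8 and 251.9 CPM in KO-labelled mice 3, 6 and 7, against 45.0, 91.7 and 123.5 CPM in WT-labelled mice 4, 5 and 8. In fibroblasts it had 53.7, 24.1, 87.9 and 97.5 CPM in KO-labelled mice 2, 3, 6 and 7, against 19.3, 29.4, 67.3 and 131.9 CPM in WT-labelled mice 1, 4, 5 and 8. The genotypes overlapped in both classes, and in fibroblasts the spread within a genotype was several-fold. Means over all mice were 122 CPM in endothelium, 86.1 in lymphatics, 63.9 in fibroblasts, 24.3 in T cells, 7.38 in epithelium, 1.74 in macrophages and 0.408 in B cells. Fibroblasts were above T cells in 8 of 8 mice (adjusted p = 0.0625, exact sign-flip test). With mitochondrial genes left out the adjusted p of this test was 0.0469. Its raw p stayed at 0.00781, and the mean log2 difference went from 1.20 to 1.15. Endothelium and lymphatics (4 of 6 mice) and lymphatics and fibroblasts (4 of 7) were not separated beyond their spread. In myofibroblasts, filled by 3 mice, Spry1 had 91.4 and 95.1 CPM in KO-labelled mice 6 and 7, against 58.1 CPM in WT-labelled mouse 5.

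Spry2, the floxed gene, was found in fibroblasts, T cells and epithelium. In epithelial cells it had 10.4, 13.3, 15.7 and 49.3 CPM in KO-labelled mice 2, 3, 6 and 7, against 11.2, 17.6, 27.7 and 37.6 CPM in WT-labelled mice 1, 4, 5 and 8. The highest value of all belonged to a KO-labelled mouse, and the genotypes overlapped throughout. The labels do not say which part of Spry2 is floxed, and a 3′ tag outside a deleted part is still counted, so these values do not check the genotype. Leaving the mitochondrial genes out of the totals gave 22.9, 23.4, 19.9 and 60.6 CPM in the KO-labelled mice, against 23.2, 28.3, 38.9 and 43.8 CPM in the WT-labelled mice. In fibroblasts, where Villin-driven Cre is not active, Spry2 had 59.5, 48.5, 38.1 and 102 CPM in KO-labelled mice, against 61.4, 38.4, 60.4 and 123.4 CPM in WT-labelled mice. KO-labelled mouse 7 was thus the highest of its genotype in both classes. Class means were 66.4 CPM in fibroblasts, 39.1 in T cells, 22.9 in epithelium, 17.9 in endothelium, 10.8 in lymphatics, 1.44 in B cells and 1.08 in macrophages. Fibroblasts exceeded T cells in 7 of 8 mice (adjusted p = 0.0625, exact sign-flip test), and T cells exceeded epithelium in 7 of 8 (adjusted p = 0.0844). Epithelium, endothelium and lymphatics were not separated: in endothelium, 3 of the 6 mice were at 0.

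Spry4, which restrains FGF and VEGF receptor signals, was concentrated in blood endothelium. There it had 259.8, 76.2 and 48.2 CPM in KO-labelled mice 3, 6 and 7, against 75.0, 66.0 and 105.9 CPM in WT-labelled mice 4, 5 and 8. Endothelium was above lymphatics in 6 of 6 mice (means of those mice 105 and 25.1 CPM, adjusted p = 0.0938, exact sign-flip test), where 6 mice allow no smaller raw p. Fibroblasts followed at 17.4 CPM and epithelium at 3.35 CPM. Fibroblasts were above epithelium in 8 of 8 mice, and epithelium above T cells in 8 of 8 (adjusted p = 0.0625 each, exact sign-flip tests). With mitochondrial genes left out both pairs had an adjusted p of 0.0469 by that test, with the raw p unchanged at 0.00781. Fibroblasts over epithelium then went from 2.11 to 1.69 on the log2 scale, and epithelium over T cells from 1.63 to 2.08. T cells, B cells and macrophages had 0.388, 0.356 and 0.0932 CPM and were not separated.

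Spred1, which brings neurofibromin to the membrane, was high in endothelium, fibroblasts and macrophages. In fibroblasts it was even across mice, with 97.9, 103.5, 105.8 and 77.7 CPM in KO-labelled mice, against 86.9, 96.9, 88.7 and 121.2 CPM in WT-labelled mice. In macrophages it had 68.2, 60.3, 52.6 and 44.8 CPM in KO-labelled mice 2, 3, 6 and 7, against 19.0, 35.7 and 68.5 CPM in WT-labelled mice 1, 4 and 5. In numbers of cells, 154 of 659 macrophages (23.4%) held a Spred1 UMI at a median depth of 5352 UMIs, against 136 of 14700 B cells (0.925%). Of 33 dendritic cells, 12 held a Spred1 UMI (36.4%, exact 95% interval 20.4% to 54.9%), whereas 0 held one of Spry1, Spry2, Spry4 or Spred2. A count of 0 in 33 cells allows up to 10.6% of such cells to hold a UMI by the exact interval, which covers counting error only and sets no limit on cells that express the gene. Class means of Spred1 were 121 CPM in endothelium, 97.3 in fibroblasts, 59.6 in lymphatics, 49.9 in macrophages, 16.8 in epithelium, 12.1 in T cells and 2.76 in B cells. Fibroblasts were above lymphatics and macrophages above epithelium in 7 of 7 mice each, and T cells above B cells in 8 of 8 (adjusted p = 0.0625 each, exact sign-flip tests).

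Spred2, a ubiquitous inhibitor of the same type, was found in all 7 classes. Its class means were 56.2 CPM in endothelium, 40.4 in fibroblasts, 39.5 in lymphatics, 23.6 in epithelium, 13.7 in T cells, 9.16 in macrophages and 3.99 in B cells. Leaving mitochondrial genes out of the totals moved its epithelial mean to 35.6 CPM, over 8 mice, and that of fibroblasts to 41.8 CPM. The epithelial mean of Spred1 became 25.3 CPM and that of Spred3 0.943 CPM under the same totals. Fibroblasts and lymphatics were not separated (5 of 7 mice), and epithelium exceeded T cells in 6 of 8 (adjusted p = 0.161, exact sign-flip test). With mitochondrial genes left out, epithelium exceeded T cells in 8 of 8 mice (adjusted p = 0.0469). Spred3, which lacks a functional KIT-binding domain, gave only 285 UMIs in all classes together. It had 9.002, 5.88, 7.26 and 3.90 CPM in the fibroblasts of KO-labelled mice, against 5.52, 7.50, 5.73 and 6.38 CPM in those of WT-labelled mice. Elsewhere it was sparse: in endothelium 3 of 6 mice were at 0, and in epithelium its mean was 0.595 CPM. None of its 6 pairs of neighbouring classes had an adjusted p under 0.29.

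Shares of cells with at least 1 UMI followed the CPM values. After each cell was thinned to 1000 UMIs, Spry1 was found in 10.0% of endothelial, 9.27% of lymphatic, 9.20% of myofibroblast, 5.44% of fibroblast, 2.17% of T, 0.444% of epithelial and 0.0694% of B cells. Spry2 was found in 5.86% of fibroblasts, 2.77% of T cells, 1.66% of epithelial cells and 0.155% of B cells. Without thinning, B cells had Spry1 in 22 of 14700 cells (0.150%) and Spry2 in 64 (0.435%) at a median depth of 1994 UMIs. Epithelial cells had Spry1 in 2.17% and Spry2 in 6.69% at a median depth of 1743 UMIs. Free RNA was not measured here, and its part in the B cell shares was not tested. Within the B cell class, Spred1 was found in 24 of 328 B progenitors (7.32%), against 9 of 1538 plasma cells (0.585%). Spry4 in T cells (0.0920%, 5 of 5434 cells) and macrophages (0.152%, 1 of 659) was close to its B cell share of 0.109%. Of the 5434 T cells, 1056 had under 1000 UMIs and did not enter the thinned share, as did 5689 of 23787 epithelial cells.

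Spry1 and Spry2 occupied different lymphoid subtypes. The authors place innate lymphoid cells in their T cell class, and Spry1 was found in group 2 innate lymphoid cells (ILC2), intraepithelial lymphocytes (IELs) and regulatory T cells (Tregs). In ILC2 it had 58.8, 168.5, 71.6 and 90.3 CPM in KO-labelled mice 2, 3, 6 and 7, against 82.4, 41.7, 136.8 and 61.3 CPM in WT-labelled mice 1, 4, 5 and 8. In cells named ILC1-NK, Spry1 was at 0 in 7 of 8 mice. Spry2 showed the reverse. In ILC1-NK cells it had 87.35, 53.3, 72.7 and 119.4 CPM in KO-labelled mice, against 82.8, 12.9, 139.0 and 307.6 CPM in WT-labelled mice. In ILC2 it stayed at 24.8 CPM or below in every mouse. All 8 mice had more Spry1 in ILC2 than in ILC1-NK cells, and all 8 had less Spry2 there.

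The same contrast held between Tregs and activated T cells. Spry1 averaged 58.0 ± 30.1 CPM in Tregs and 3.83 ± 5.00 CPM in activated T cells (SD, n = 7 mice with 20 cells of both), higher in 7 of 7 mice. Spry2 averaged 1.37 ± 3.63 CPM in Tregs and 46.7 ± 14.1 CPM in activated T cells, lower in 7 of 7. In numbers of cells, 85 of 503 ILC2 (16.9%), 47 of 302 IELs (15.6%) and 43 of 412 Tregs (10.4%) held a Spry1 UMI, against 1 of 342 ILC1-NK cells (0.292%). For Spry2, 71 of 342 ILC1-NK cells (20.8%) and 140 of 1177 activated T cells (11.9%) held a UMI, against 23 of 503 ILC2 (4.57%) and 1 of 412 Tregs (0.243%). Median depths of these subtypes lay between 2348.5 and 2871 UMIs. Of 74 cells named ILC3, 17 held a Spry2 UMI (23.0%, exact 95% interval 13.99% to 34.2%) and 4 one of Spry1, though no mouse had 20 of them. Memory T cells were low in both genes, at 6.67 CPM or below for Spry1 and 3.08 CPM or below for Spry2 in the 7 mice that filled them. Spred1 was also higher in ILC2 than in ILC1-NK cells in 8 of 8 mice (31.1 ± 19.5 against 7.46 ± 8.76 CPM), and Spred2 was split, 4 mice each way. These pairs of subtypes were picked after their values were seen and carry no test.

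**Figure D2:**
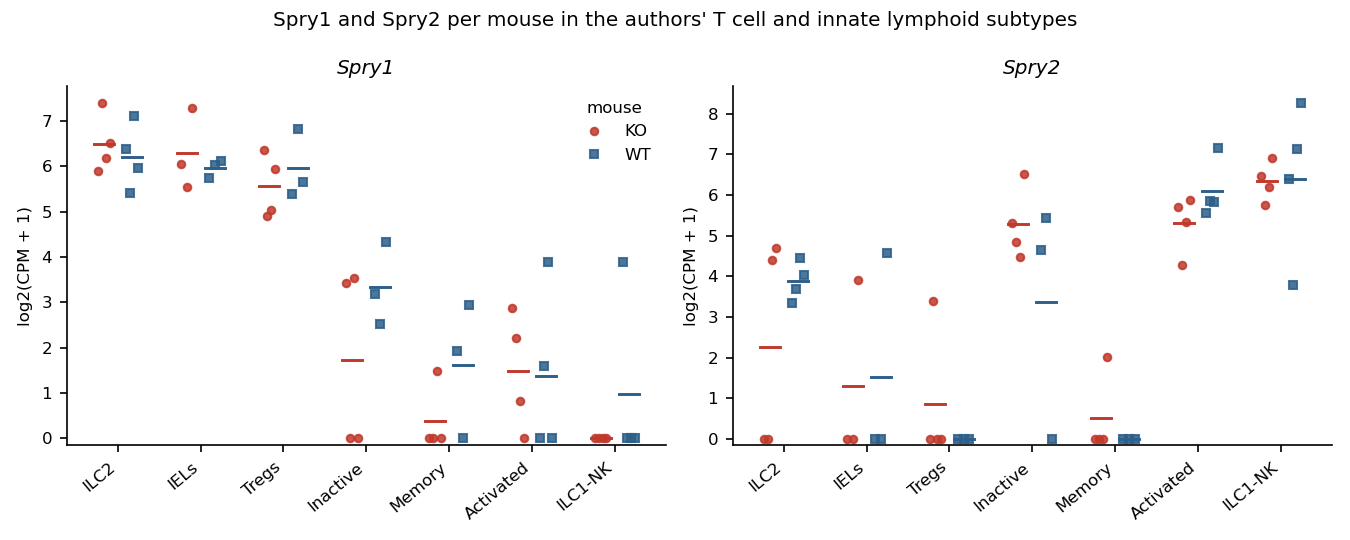
Spry1 (left) and Spry2 (right) in 7 lymphoid subtypes named by the authors, as log2(CPM + 1) on the vertical axis. Points are mice with at least 20 cells of the subtype (red circles KO-labelled, blue squares WT-labelled) and bars are means of the points. Spry1 is high in ILC2, IELs and Tregs, where Spry2 is low, and Spry2 is high in activated T cells and ILC1-NK cells, where Spry1 is low.

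Within fibroblasts, Spry1 and Spry4 were higher in the subtype that the authors named CD90-pos, Igfbp3 than in plain CD90-pos cells. Spry1 in the Igfbp3 subtype had 147, 135, 167 and 210.3 CPM in KO-labelled mice 2, 3, 6 and 7, against 116.3, 100.8 and 130.0 CPM in WT-labelled mice 4, 5 and 8, while WT-labelled mouse 1 had only 15 such cells. In plain CD90-pos fibroblasts it had 35.2, 11.5, 26.9 and 21.1 CPM in KO-labelled mice, against 15.4, 15.1, 20.8 and 200.6 CPM in WT-labelled mice. The last value came from 21 cells and 4 UMIs, and apart from that mouse all had less Spry1 in CD90-pos fibroblasts. Spry4 had 46.6, 55.3, 35.3 and 38.1 CPM in the Igfbp3 subtype of KO-labelled mice, against 24.5, 30.6 and 22.8 CPM in that of WT-labelled mice 4, 5 and 8. It was higher than in CD90-pos fibroblasts in 7 of 7 mice. Spred1 averaged 105 ± 21.1 CPM in the Igfbp3 and 92.2 ± 12.7 CPM in the plain CD90-pos subtype (SD, n = 7 mice), and was higher in the Igfbp3 subtype of 6 of 7 mice. Spred2 averaged 39.9 ± 5.15 and 36.6 ± 17.01 CPM there and was higher in 3 of 7. Spry2 averaged 71.7 ± 29.6 and 82.4 ± 76.8 CPM, yet it too was higher in the Igfbp3 subtype of 6 of 7 mice. Its plain CD90-pos mean includes 250.7 CPM from 5 UMIs in the 21 cells of WT-labelled mouse 8. Spred3 was higher in the Igfbp3 subtype of 4 of 7 mice.

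In the Igfbp3 subtype the genotypes did not overlap for Spry1 (165 ± 33.0 CPM over 4 KO-labelled mice and 116 ± 14.6 CPM over 3 WT-labelled mice) or for Spry4 (43.8 ± 9.02 and 26.0 ± 4.09 CPM). Of all 8501 genes with a mean of 10 CPM or more in this subtype, 4.32% had genotypes that did not overlap, and 1.94% did so with KO-labelled mice higher. No test was made of this difference, which was noticed in the values. The share of fibroblasts in the Igfbp3 subtype was 10.3%, 9.34%, 41.5% and 31.5% in KO-labelled mice 2, 3, 6 and 7, against 3.78%, 13.2%, 49.8% and 87.2% in WT-labelled mice 1, 4, 5 and 8. The level of Spry1 in all fibroblasts was lowest in mice 1, 3 and 4 and highest in mouse 8, and its dependence on this share was not tested. In 26 cells named CD90-neg, Sox6-Bmp of WT-labelled mouse 5, the only mouse with 20 or more, Spry1 and Spry2 had 170 CPM each, Spry4 140.1 CPM and Spred1 250.2 CPM. Cells named MSCs had 149.2 and 77.5 CPM of Spry1 in KO-labelled mice 2 and 7, against 98.9 CPM in WT-labelled mouse 5.

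**Figure D3:**
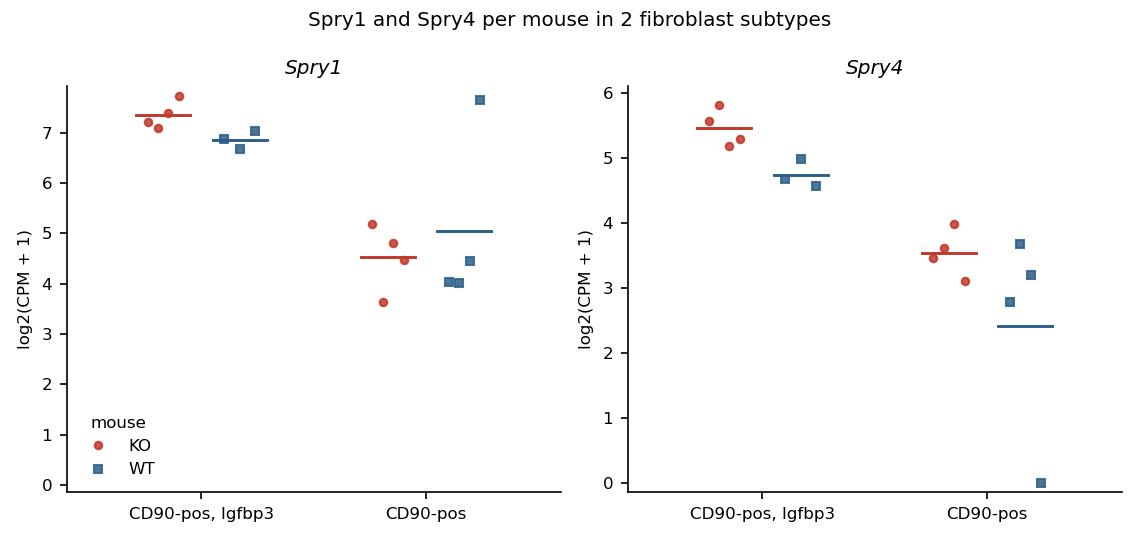
Spry1 (left) and Spry4 (right) in 2 fibroblast subtypes, as log2(CPM + 1) on the vertical axis. Points are mice with at least 20 cells (red circles KO-labelled, blue squares WT-labelled) and bars are means of the points. In the CD90-pos, Igfbp3 subtype all 4 KO-labelled mice lie above the 3 WT-labelled mice, and the high WT-labelled point of Spry1 in CD90-pos cells is mouse 8 with 21 cells.

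The authors named epithelial subtypes in WT-labelled mice only: 6502 of their 13229 epithelial cells had a name, and 0 of 10558 in KO-labelled mice. In these WT-labelled mice 5 of the 6 members were higher in stem-progenitor cells than in enterocytes in 4 of 4 mice, the exception being Spred3 (2 of 4). The totals behind these values include mitochondrial genes. With those left out, Spred2 had 21.9 to 48.1 CPM in the authors' cluster 4, mostly enterocytes, of WT-labelled mice. It had 34.8 to 41.4 CPM in their cluster 5, where stem-progenitor was the most frequent name, so at least 1 mouse was higher in cluster 4. Spred1 had 32.9, 25.7, 23.7 and 18.3 CPM in the stem-progenitor cells of mice 1, 4, 5 and 8, against 1.92, 6.88, 3.56 and 8.41 CPM in their enterocytes. Secretory progenitors had the most Spred1 (31.3 ± 6.24 CPM) and goblet cells little (4.66 ± 4.14 CPM, n = 3). Spry4 had 2.89, 6.95, 5.51 and 6.23 CPM in stem-progenitor cells, against 1.28, 2.06, 1.19 and 0.467 CPM in enterocytes.

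Spry1 and Spry2 extended into the secretory cells. Spry1 was lowest in enterocytes (1.02 ± 0.481 CPM) and averaged 17.1 ± 10.2 CPM in goblet cells, while Spry2 averaged 35.6 ± 16.5 CPM in goblet cells, 33.7 ± 4.19 CPM in secretory progenitors, 29.2 ± 9.63 CPM in stem-progenitor cells and 20.4 ± 4.15 CPM in enterocytes (SD, n = 3 mice for goblet cells and 4 for the others). Goblet cells were not alone in this: in the authors' cluster 18, 418 of 420 named cells were deep crypt secretory cells. WT-labelled mice had 14.2 ± 13.7 CPM of Spry1 and 32.4 ± 24.6 CPM of Spry2 there (SD, n = 4). These values rest on 12 and 27 UMIs. Tuft cells of WT-labelled mice 5 and 8, the only mice with 20 or more, had 70.4 and 53.1 CPM of Spred2, against 35.3 and 29.1 CPM in their stem-progenitor cells.

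**Figure D4:**
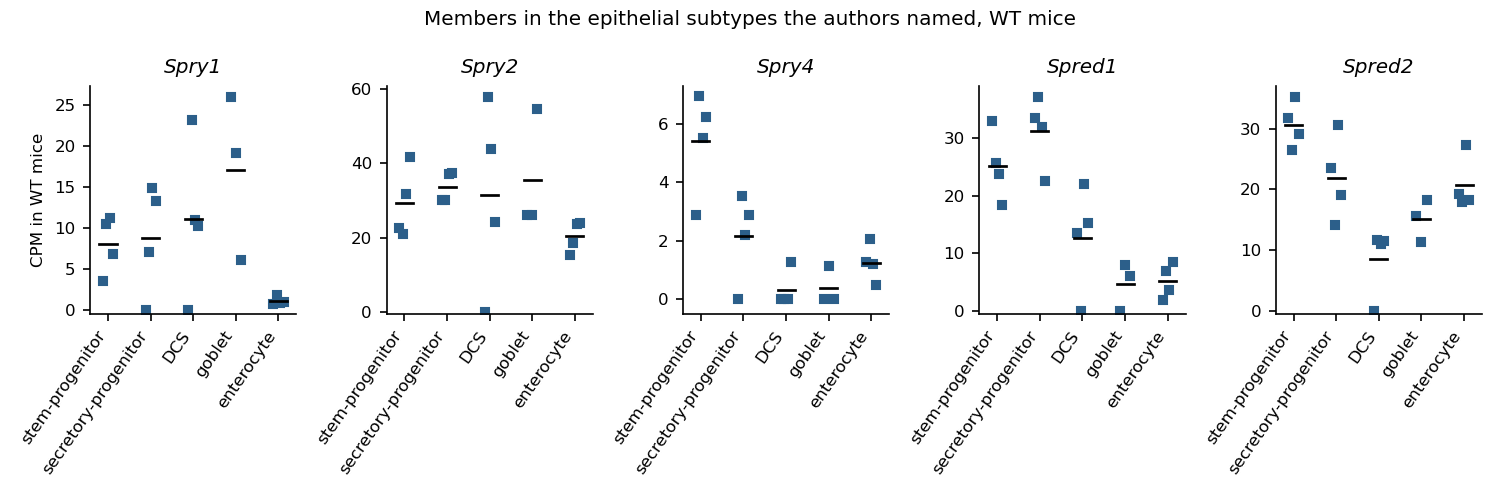
Transcript levels of 5 members, in CPM on the vertical axis, in the epithelial subtypes the authors named. Points are WT-labelled mice with at least 20 cells of the subtype, and bars are their means (DCS, deep crypt secretory cells). Spred1 and Spry4 are highest in progenitors, whereas Spry1 is near 1 CPM in enterocytes and reaches 26.1 CPM in goblet cells.

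To set the genotypes side by side within the epithelium, the authors' clusters were used, which hold both. Cluster 5, in which 2114 WT-labelled cells had a name and stem-progenitor was the most frequent, had Spry2 at 20.1, 20.4, 16.6 and 48.4 CPM in KO-labelled mice, against 20.02, 23.1, 31.7 and 41.4 CPM in WT-labelled mice. In cluster 4, mostly enterocytes, Spry2 averaged 19.8 ± 11.9 CPM over the KO-labelled mice and 17.7 ± 3.04 CPM over the WT-labelled mice (SD, n = 4 each). Neither cluster separated the genotypes for Spry2. With mitochondrial genes left out of the totals, Spred2 in cluster 5 had 42.0 to 50.7 CPM in KO-labelled mice and 34.8 to 41.4 CPM in WT-labelled mice. These ranges did not overlap, whereas those with mitochondrial genes included did. The ranges also overlapped with cells rich in mitochondrial UMIs left out. They were then 33.4 to 39.1 CPM in KO-labelled mice and 27.0 to 33.6 CPM in WT-labelled mice. The share of all genes without overlap in cluster 5 was not counted under any totals. The lack of overlap under 1 setting is therefore not read as a result. In cluster 14 the most frequent name was again stem-progenitor, with 414 of 1109 named cells. The cluster is thus a mix, and KO-labelled cells have no names. A different mix and a different level per cell type cannot be told apart there. Spred1 there had 46.9, 48.7, 39.4 and 36.2 CPM in KO-labelled mice, against 34.8, 28.6, 32.3 and 31.4 CPM in WT-labelled mice, without overlap. With mitochondrial genes left out of the totals the genotypes did overlap, at 41.3 to 60.6 CPM in KO-labelled mice and 33.6 to 42.5 CPM in WT-labelled mice. Of the 8293 genes with a mean of 10 CPM or more in that cluster, 2.46% had genotypes that did not overlap (1.13% with KO-labelled mice higher), and this pair was noticed in the values and not tested.

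Fibroblasts and epithelial cells of the same mice were compared by edgeR's quasi-likelihood test on summed counts, with the mouse as a block. All 6 members were called higher in fibroblasts (Benjamini-Hochberg adjusted p under 0.05). Of all 13605 genes tested, 79.5% were called, 40.3% higher and 39.2% lower in fibroblasts, so a call by itself was common. Spry1 was 2.45 ± 0.20 higher on the log2 scale (SE, adjusted p = 4.2e-08), and Spred3 2.75 ± 0.25 (1.6e-07), both higher in fibroblasts in 8 of 8 mice. Spred1 was 1.96 ± 0.09 higher (7.2e-11), Spry4 1.89 ± 0.18 (2.2e-07) and Spry2 1.01 ± 0.11 (9.6e-07). Spred2 was only 0.21 ± 0.09 higher (adjusted p = 0.037), and DESeq2 did not call it (0.16, adjusted p = 0.12). It also lost its call when any 1 of mice 1 to 6 was left out (0.12 to 0.22). Without TMM factors, on library totals alone, the median difference of all genes was 0.62, against 0.02 with them, and 7521 genes were called higher and 3265 lower, against 5480 and 5330. All 6 members were called higher under that scaling too, by 3.01 for Spry1, 1.62 for Spry2, 2.46 for Spry4, 2.57 for Spred1, 0.81 for Spred2 and 3.36 for Spred3.

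Between genotypes, none of the tested members was called in any class, and no member of 10 CPM or more had genotypes that did not overlap in epithelium or in fibroblasts. Of all genes at that level, 0.224% did not overlap in epithelium (0.0281% with KO-labelled mice higher) and 1.79% in fibroblasts (0.778%). edgeR called 0 of 11723 genes in epithelial cells, 0 of 11023 in fibroblasts, 0 of 8706 in T cells and 0 of 10444 in B cells, 0% in each. DESeq2 likewise called 0 in each of the 4 classes. At an unadjusted p under 0.05, edgeR had 96, 197, 157 and 109 genes and DESeq2 85, 156, 76 and 78 genes in those classes. With a term for mice 1 to 4 against 5 to 8, added after seeing the data, edgeR had 212, 445, 224 and 270. Each count is below a share of 0.05 of the genes tested. The calls of 0 therefore do not show that the genotypes are alike. Spry2 in epithelial cells differed by -0.12 ± 0.35 (log2 KO over WT, SE), with a 95% interval of -0.90 to 0.66. Spred1 differed by 0.31 ± 0.16 (-0.06 to 0.67) and Spred2 by 0.26 ± 0.12 (-0.01 to 0.53), each with edgeR adjusted p = 0.9999. Spry1 differed by 0.51 ± 0.31 and Spry4 by -0.02 ± 0.38, and Spred3 was too sparse to be tested.

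In fibroblasts the 6 differences ran from -0.04 (Spry2) to 0.29 (Spry1 and Spred2). In T cells, Spry2 differed by -0.63 ± 0.46 (-1.62 to 0.36). KO-labelled mice had 20.1 to 40.3 CPM of Spry2 there, WT-labelled mouse 8 had 125.1 CPM and WT-labelled mice 1, 4 and 5 had 18.0 to 31.3 CPM. Without mouse 8 the difference was 0.07. Activated and ILC1-NK cells made up 33.0% and 15.8% of the T cells of mouse 8. They made up 5.77% to 23.4% and 3.57% to 8.04% in the other WT-labelled mice. In KO-labelled mice they made up 10.4% to 28.8% and 5.07% to 8.9%. Inactive cells made up 36.3% to 57.8% in mice 1 to 4, against 5.2% to 8.25% in mice 5 to 8. The part of this mix in the class values was not tested. Spry1 in T cells differed by 0.18 ± 0.40, Spred1 by -0.09 ± 0.29 and Spred2 by 0.11 ± 0.35. In B cells Spred1 differed by -0.02 ± 0.38 and Spred2 by 0.46 ± 0.38. Whether the KO over WT difference was itself unlike in epithelium and fibroblasts was tested by an exact permutation over 70 assignments of mice. The difference between the log2 ratios was -0.06 for Spry2 (adjusted p = 0.926) and at most 0.37 in size for any member (Spry4, -0.37, adjusted p = 0.926).

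**Figure D5:**
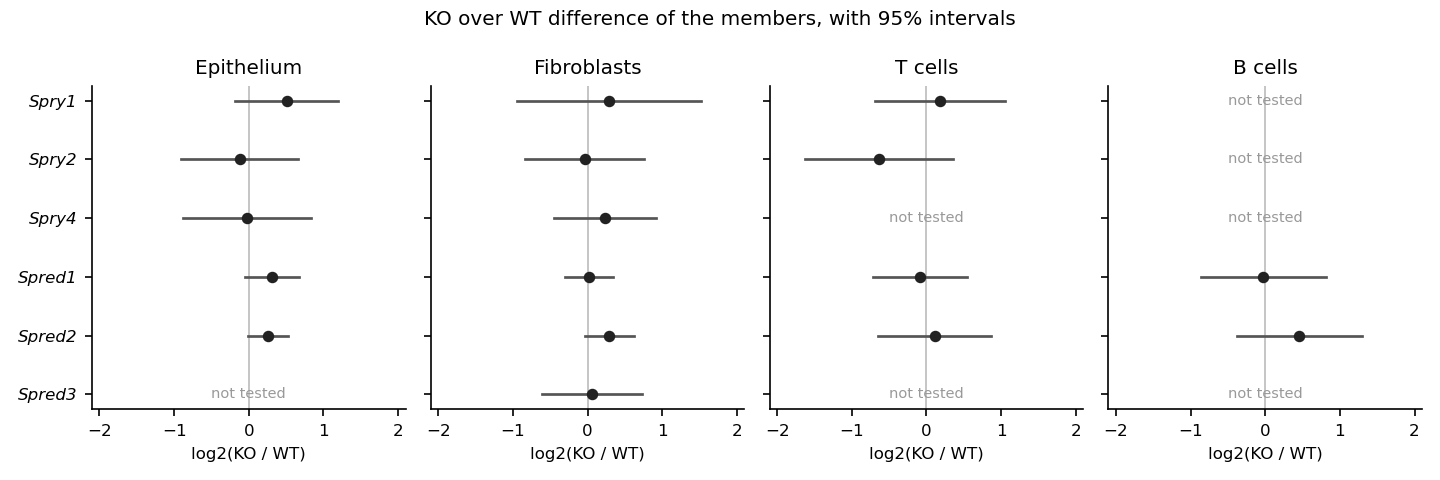
Difference between KO-labelled and WT-labelled mice for each member in 4 classes, as log2(KO / WT) from edgeR on the horizontal axis. Points are estimates and lines are 95% intervals; members below the count filter are marked as not tested. Every interval includes 0.

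Other genes of the pathway were read from 4 lists. Of all 13605 genes tested between fibroblasts and epithelial cells, 40.3% were called higher in fibroblasts and 39.2% lower. The counts below are to be read beside these shares, and no list was tested as a set. Between fibroblasts and epithelial cells, 5 of 13 binding partners were called higher in fibroblasts and 5 lower (median log2 difference -0.11, against 0.02 over all genes). Cav1, the caveolar scaffold that binds Sprouty proteins, was 6.43 ± 0.26 higher, the phosphatase gene Ptpn11 1.15 ± 0.08 higher and the adaptor gene Shc1 0.91 ± 0.08 higher. Of 16 receptor tyrosine kinases tested, 10 were called higher in fibroblasts and 6 lower (median 1.55). Fgfr1 was 7.95 ± 0.19 and Pdgfrb 4.78 ± 0.13 higher, and Erbb3, a neuregulin receptor, fell by 6.57 ± 0.18 on the log2 scale. Of 15 genes of the Ras to ERK core, 5 were higher and 5 lower (median 0.02). The MEK gene Map2k1 fell by 1.83 ± 0.08 and the ERK gene Mapk3 by 1.13 ± 0.08, and Rasa1, a Ras GTPase activator, was 1.08 ± 0.10 higher. Of 10 feedback and target genes, 4 were higher and 5 lower (median -0.58). Ier3, an immediate early gene, was 3.17 ± 0.16 higher, whereas the phosphatase gene Dusp5 fell by 2.00 ± 0.12 and the ETS factor gene Etv4 by 4.54 ± 0.34. All the genes given here passed edgeR's test (largest adjusted p = 2.6e-07, for Rasa1). They were picked as the 3 of each list with the smallest p in this same fit. Their passing therefore follows from the choice and says nothing about the lists.

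Between genotypes, 0 genes of these lists were called in epithelial cells, where 12, 10, 15 and 10 genes of the lists were tested. Medians of the log2 differences were -0.02 for binding partners, 0.14 for receptors, 0.01 for the core and 0.03 for feedback and target genes, against 0.00 over all genes. Dusp6, a phosphatase of ERK and a usual readout of its activity, differed by 0.44 ± 0.27 and Dusp5 by 0.19 ± 0.14. Kit differed by -0.46 ± 0.39, Met by 0.18 ± 0.17, Sos1 by 0.15 ± 0.16, Araf by -0.12 ± 0.13, Ppp2ca by 0.14 ± 0.16 and Ppp2r1a by -0.09 ± 0.13. Each had an edgeR adjusted p of 0.9999.

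Likeness of pattern was described by Pearson's r of mean log2(CPM + 1) over 20 cell types of WT-labelled mice, among 13283 genes that reached 10 CPM in a type. The types share libraries and depth, so r is a description without a test. Among the members, Spry4 and Spred2 were most alike (r = 0.80), followed by Spry4 and Spred1 (0.71), whereas Spry2 had r between 0.09 and 0.29 with each other member. Spry1 and Spry2 had r = 0.14. The genes most like Spry1 were Tbc1d9b (0.84), Socs5, Pde10a, Csgalnact1 and Mpp2. Those most like Spry2 were Ncald (0.85), Nsmf, Gm48970, Aldh3a2 and Fhl2, each highest in a fibroblast subtype. Those most like Spry4 were Afap1l2 (0.97), Prkd1, Ptprm, Exoc3l4 and Rgs5, all of them highest in blood endothelium. By Spearman's rho these 5 stood lower, from rank 30 (Ptprm, 0.84) to rank 406 (Rgs5, 0.73) among the genes compared. Spred1 was most like Ier3 (0.86), Trip6, Klhl5, Ube2e2 and Nipa1, and Spred2 most like Sgk1 (0.89), Cnksr3, Wwc2, Ctnnb1 and Fbxl18. Spred3, itself below 10 CPM in every type, was most like Zhx3 (0.83), Arl6, Peg3, Zbtb14 and Sparc, and by rho Zhx3 had 0.73 and rank 38.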

How the data were processed

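Per the labels' protocols, all 3′ libraries were made on the same day. Alignment and counting used Cell Ranger 3.0.2 on mm10, per the submitters' processing notes. The deposited matrix holds counts: whole numbers of UMIs per gene and cell, not normalized by the authors. Each cell's size factor in the deposited table is a ratio of its total to the geometric mean, and the deposited UMAP coordinates are a score that entered no result. Classes (11), clusters (32) and subtypes are the authors' own, made with tools not stated in the labels. Cells of the table were matched to the matrix by mouse and barcode, and all 53080 size factors then equalled those computed from the matrix (tolerance 1e-06). Mice are the replicates.

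Counts were summed per mouse and class. For classes with 50 cells in at least 3 mice per genotype, the sums were tested by quasi-likelihood in edgeR 4.0.16 (R 4.3.3) after filterByExpr and TMM scaling, and by DESeq2 1.42.0. The steps were tested on simulated data. Order tests, permutations and likeness used Python 3.11.15 with numpy 2.4.6, and figures matplotlib 3.10.9. Levels needed 20 cells of a type in a mouse, and intervals cover 95% and counting or model error only. The smallest p of the permutation over 70 assignments is 0.0286. Members and lists were chosen with earlier results of these data known. Named genes are the 6 members, the 3 genes of each list with the smallest p between fibroblasts and epithelial cells, the 2 with the smallest p between genotypes in epithelial cells, and the 5 most like each member. Alternatives were DESeq2, RLE factors, no count filter, mitochondrial genes or cells left out, doublets kept, no mouse block, other pseudocounts, cell minimums and depths, and each mouse left out. Library totals alone and a term for mice 1 to 4 against 5 to 8 were added after seeing the data.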

Additional observations from a re-analysis of the deposited data

Results flagged for a closer look

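Among 65 groups of 4 mice with at least 20 UMIs, the highest or lowest mouse lay far from the other 3 of its genotype in 8. The limit used would flag about 1 in 20 independent groups of normal values by chance. These groups share mice and cells, and some values rest on 4 or 5 UMIs, so that rate does not apply to them. KO-labelled mouse 7 had 49.3 CPM of Spry2 in epithelial cells (281 UMIs in 1298 cells), against 10.38 to 15.7 CPM in the other KO-labelled mice. The same mouse was lowest for Spred1 in CD90-pos fibroblasts, at 76.3 CPM against 99.5 to 102.6 CPM. KO-labelled mouse 2 had 23.8 CPM of Spred2 in T cells, against 11.3 to 12.3 CPM. WT-labelled mouse 4 had 7.88 CPM of Spred1 in T cells, against 13.5 to 14.1 CPM.

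The other 4 belong to WT-labelled mouse 8. It had 125.1 CPM of Spry2 in T cells (65 UMIs in 221 cells), where WT-labelled mice 1, 4 and 5 had 18.0 to 31.3 CPM. Its T cells had the largest shares of activated and ILC1-NK cells of any mouse, and the part of these shares was not tested. In activated T cells mouse 8 had 141 CPM, against 46.4 to 57.3 CPM. In its 21 CD90-pos fibroblasts it had 250.7 CPM of Spry2 (5 UMIs) and 200.6 CPM of Spry1 (4 UMIs), where WT-labelled mice 1, 4 and 5 had 37.9 to 61.0 CPM and 15.1 to 20.8 CPM.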

How the results depend on the processing

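KO-labelled and WT-labelled mice were compared unpaired, since the mouse numbers do not say which mice share a litter. Comparisons between classes were paired by mouse. The members other than Spred2 kept their call between fibroblasts and epithelial cells under every alternative run. Spred2 lost its call with DESeq2 (0.16), RLE factors (0.15), no count filter (0.14), mitochondrial genes left out (0.17), mitochondria-rich cells left out (0.20) and doublets kept (0.17), and its log2 difference ran from 0.12 to 0.24 when each mouse was left out. The cause was not tested.

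Of the neighbouring classes, 6 pairs passed with mitochondrial genes left out and 6 with mitochondria-rich cells left out, against 0 otherwise. Among them only Spred1 and Spred2 between epithelium and T cells had a smaller raw sign-flip p than before, and the rest kept 0.00781. The cause was not tested. In T cells, 14 genes were called between genotypes without a count filter, against 0 with it, and no other alternative gave a call in any class.

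Member differences between genotypes that were not called changed sign under some settings. Spry4 in epithelium was 0.0127 without mitochondria-rich cells, Spry2 in fibroblasts 0.00386 with the term for mice 1 to 4, and Spred1 in fibroblasts -0.00969 on library totals. Spred1 in B cells was 0.0561 with doublets and 0.0183 with that term. The difference of differences was 0.00693 for Spry2 at a pseudocount of 10 CPM and 0.0126 for Spred2 without mitochondria-rich cells. With each mouse left out, the epithelial log2 differences ran from -0.61 to 0.0682 for Spry2 and -0.41 to 0.15 for Spry4. In fibroblasts they ran from -0.0188 to 0.71 (Spry1), -0.39 to 0.24 (Spry2), -0.0079 to 0.58 (Spry4), -0.0439 to 0.11 (Spred1) and -0.13 to 0.23 (Spred3). In B cells Spred1 ran from -0.14 to 0.17. In T cells they ran from -0.38 to 0.50 (Spry1), -0.95 to 0.0666 (Spry2), -0.27 to 0.0822 (Spred1) and -0.13 to 0.37 (Spred2). The difference of differences ran from -0.14 to 0.47 (Spry1), -0.33 to 0.20 (Spry2) and -0.23 to 0.11 (Spred2). Depth limits the sparse members most: Spred3 and Spry4 had 285 and 910 UMIs in all. Of the recomputed mean levels, 74 moved by more than 1 SD between mice and 616 did not. All of these moves were in epithelial cells, with mitochondrial genes or mitochondria-rich cells left out.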
